A study of Mus musculus with 2 samples.

Results

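Growth-associated and stathmin genes encode proteins that shape the growing axon: the 4 stathmins Stmn1, Stmn2, Stmn3 and Stmn4, the membrane-bound growth proteins Gap43, Basp1 and Marcks, and the collapsin response mediator proteins (CRMPs) Dpysl2, Dpysl3 and Crmp1. They were taken as the rows of the deposited gene and transcript quantifications whose identifiers, without version, carry these symbols in GENCODE M21. All 10 were found among 43346 annotated genes, with 32 of 103639 annotated transcripts. Frontal cortex was taken from adult C57BL/6J mice (8 weeks of age), with no treatment named, and forms 1 group of 2 biological replicates that share 1 donor entry in the labels. Per the labels each replicate holds littermates of both sexes, and its RNA was depleted of ribosomal RNA, selected for polyA and for lengths over 200 nt, and sequenced as stranded read pairs. No second condition exists to compare with, so levels, transcript use and differences between the replicates are given without p-values.

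Stathmins bind tubulin dimers and favour the disassembly of microtubules until kinases phosphorylate them. Gap43, Basp1 and Marcks proteins sit on the inner face of the plasma membrane, bind acidic phospholipids or calmodulin, and are released or modified by protein kinase C. CRMPs are cytosolic phosphoproteins that bind tubulin and relay semaphorin signals to the axon, and are controlled by the kinases Cdk5 and Gsk3b. These genes are best known from developing and regenerating neurons, and several stay on in adult cortex.

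The start of the coding sequence is shown because it holds the codons for the lipid anchors that set Stmn1 apart from the other stathmins and Gap43 apart from Basp1 and Marcks. The sequences are the first 90 coding bases of the leading transcript of each gene, from GENCODE M21 transcripts on mm10. Capitals mark codons for cysteine, which can carry palmitate, and a codon for glycine directly after the start codon, which can carry myristate.
Stmn1: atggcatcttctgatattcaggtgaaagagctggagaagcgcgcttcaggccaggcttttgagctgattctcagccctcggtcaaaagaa
Stmn2: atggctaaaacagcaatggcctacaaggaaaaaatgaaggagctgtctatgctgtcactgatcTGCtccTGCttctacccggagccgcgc
Stmn3: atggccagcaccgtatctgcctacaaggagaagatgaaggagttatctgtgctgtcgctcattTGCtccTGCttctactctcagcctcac
Stmn4: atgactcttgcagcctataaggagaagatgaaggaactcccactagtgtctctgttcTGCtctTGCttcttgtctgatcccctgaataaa
Gap43: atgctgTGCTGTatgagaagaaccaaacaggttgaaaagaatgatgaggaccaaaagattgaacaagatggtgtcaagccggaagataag
Basp1: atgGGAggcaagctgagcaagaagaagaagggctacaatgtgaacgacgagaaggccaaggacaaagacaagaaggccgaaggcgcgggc
Marcks: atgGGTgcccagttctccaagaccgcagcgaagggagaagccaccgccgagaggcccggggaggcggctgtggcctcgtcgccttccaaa
Counted from the start codon as 1, cysteine codons stood at 22 and 24 in Stmn2 and Stmn3, at 20 and 22 in Stmn4 and at 3 and 4 in Gap43. The whole coding sequence of Stmn1, of 149 codons before the stop, held 0 cysteine codons, and that of Basp1 also held 0. Basp1 and Marcks shared a composition rich in alanine codons, at 29.2% and 28.8%, beside 20.3% in Gap43 and 8.33 to 10.1% in the stathmins.

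The stathmin coding sequences were 69.3 to 73.5% identical over aligned bases, and those of the 3 CRMPs 71.3 to 74.6%. The longest exact run shared by leading transcripts of any of the 45 pairs of these genes was 43 nt, between Stmn1 and Stmn2, which is shorter than a read. The authors' posterior SD of the gene count, a measure of reads that could belong elsewhere, was 0 for 9 genes, and for Stmn1 it was 5.18 and 4.06 counts beside 36960 and 30203 expected counts. Evc overlaps the end of Crmp1 on the opposite strand, at 7.26 and 6.78 TPM, and whether the counting used strand is not given in the sources used here. Evc was far below Crmp1. Stmn4 and Dpysl2 lie 441 kb apart on chromosome 14, and the others lie on chromosomes of their own.

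Expected counts (estimated fragments) summed to 106084891 in replicate 1 and 90476207 in replicate 2. Markers of cortical excitatory neurons were present, with Slc17a7 at 424 ± 32.5 TPM and Camk2a at 707 ± 2.81 TPM (SD, n = 2), and no gene of the 10 cell type lists was listed at 0. The libraries went against their label of pooled sexes: Xist, made from the inactive X chromosome, had 0.250 TPM in replicate 1 but 110 TPM in replicate 2, and the Y-linked Eif2s3y at 53.8 and 0.0500 TPM. Sex and replicate cannot be told apart in any difference between the libraries. Levels of the 10 genes are therefore given per library, while many other genes have only a mean ± SD.

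Together the 10 genes took 0.209% of all TPM in replicate 1 and 0.187% in replicate 2, a mean of 0.198 ± 0.0155%. TPM is a read abundance divided by transcript length and scaled to the same total in each library, so levels of different genes can be set side by side. Of these TPM the stathmins held 62.1 ± 1.25%, the membrane-bound growth proteins 26.5 ± 1.80% and the CRMPs 11.4 ± 0.548%. All 10 genes stood at 10 TPM or more in both libraries, as did 35.7% of the 21461 nuclear protein-coding genes. Of the 10, 7 stood at 100 TPM or more in both, a level that 4.03% of the nuclear protein-coding genes reached. In bulk tissue, fewer cells of a type and less RNA per cell cannot be told apart.

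**Figure D1:**
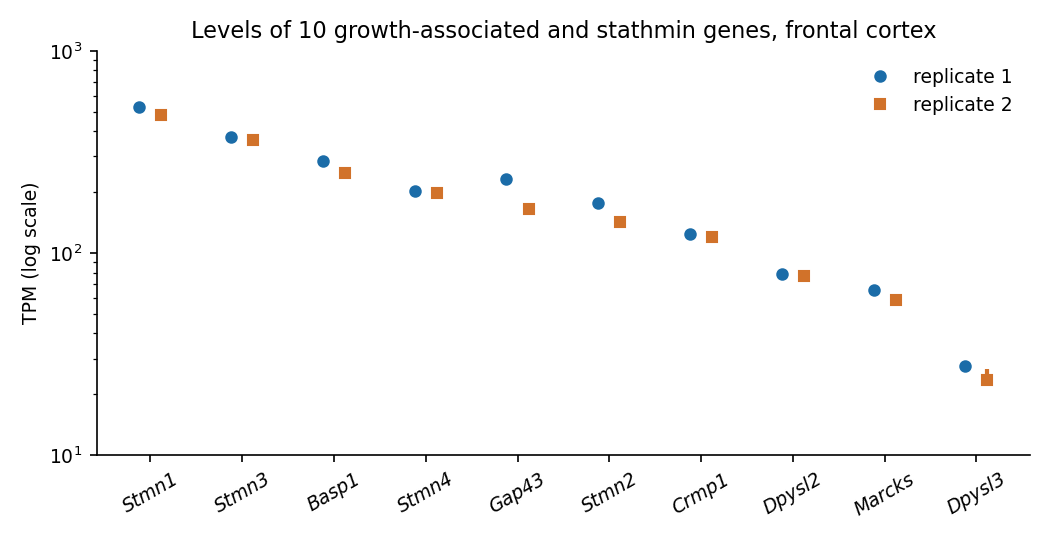
Level of each gene in TPM on a log axis, ordered by the mean of the 2 replicates. Circles are replicate 1, squares replicate 2 and vertical lines the interval bounds deposited by the authors, mostly smaller than the symbols; Gap43 lies above Stmn4 in replicate 1 and below it in replicate 2.

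Stmn1, the cytosolic stathmin that is also expressed outside neurons, was the most abundant of the 10 (ENSMUSG00000028832.7, chr4:134468320-134473843, plus strand). Its level was 527 TPM in replicate 1 and 481 in replicate 2, a mean of 504 ± 33.0 (SD, n = 2), and it ranked 86 and 99 among nuclear protein-coding genes. Stmn3, a neuronal stathmin of Golgi and vesicle membranes, followed at 375 and 360 TPM, mean 368 ± 10.7 (ENSMUSG00000027581.12, chr2:181306459-181314500, minus strand). Both lay above every other gene of the set in both libraries.

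Stmn4, the brain stathmin known for several splice forms, stood at 202 and 197 TPM, mean 199.6 ± 3.10 (ENSMUSG00000022044.10, chr14:66344296-66361680, plus strand). Stmn2, a stathmin of the growth cone whose mRNA depends on TDP-43 in human motor neurons, was the lowest of the family at 177 and 142 TPM, mean 159.6 ± 24.8 (ENSMUSG00000027500.10, chr3:8509360-8561606, plus strand). Within the family Stmn1 held 40.9 ± 0.299% of TPM, Stmn3 29.9 ± 0.869%, Stmn4 16.2 ± 0.693% and Stmn2 12.9 ± 1.26%. The order Stmn1, Stmn3, Stmn4, Stmn2 was the same in both libraries, with intervals apart at every step. The distance from Stmn1 to Stmn2 was 1.67 ± 0.13 on the log2 scale of TPM (SD, n = 2), a 3.17-fold difference.

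Basp1, which binds membranes through myristate and gathers acidic phospholipids, led the membrane-bound growth proteins at 284 and 249 TPM, mean 267 ± 25.1 (ENSMUSG00000045763.7, chr15:25363277-25413764, minus strand). Gap43, the palmitoylated growth cone protein that binds calmodulin, stood at 232 and 166 TPM (ENSMUSG00000047261.9, chr16:42248442-42340651, minus strand). Its replicates lay further apart than those of any other gene of the set, relative to its mean of 199 ± 46.8 TPM. Marcks, the myristoylated protein kinase C substrate found in many cell types, was lower at 65.4 and 58.5 TPM, mean 61.9 ± 4.90 (ENSMUSG00000069662.5, chr10:37133375-37138920, minus strand). Basp1 exceeded Gap43 by 0.44 ± 0.21 and Gap43 exceeded Marcks by 1.67 ± 0.23 on the log2 scale of TPM.

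Of the CRMPs, Crmp1 stood highest at 124 and 120.0 TPM, mean 122 ± 2.93 (ENSMUSG00000029121.11, chr5:37241940-37292133, plus strand). Dpysl2, the CRMP best known for carrying tubulin dimers into growing axons, was at 78.8 and 77.3 TPM, mean 78.0 ± 1.07 (ENSMUSG00000022048.8, chr14:66802864-66868688, minus strand). Dpysl3, a CRMP most abundant before birth, was the lowest of the 10 at 27.7 and 23.7 TPM, mean 25.7 ± 2.83 (ENSMUSG00000024501.15, chr18:43320984-43438286, minus strand). Crmp1 exceeded Dpysl2 by 0.65 ± 0.01 on the log2 scale of TPM, and Marcks, the next gene up from Dpysl3 in the whole order, exceeded Dpysl3 by 1.27 ± 0.05. Among all 5 CRMP genes, Crmp1 held 44.1 ± 0.503% of TPM, Dpysl2 28.2 ± 0.611%, Dpysl4 11.4 ± 0.438%, Dpysl3 9.26 ± 0.694% and Dpysl5 7.02 ± 0.0185%.

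In the whole order Stmn1, Stmn3, Basp1, Stmn4, Gap43, Stmn2, Crmp1, Dpysl2, Marcks and Dpysl3, 8 of the 9 steps were apart. A step counted as apart when it had 1 sign in both libraries, its mean exceeded its SD and the deposited intervals of TPM did not overlap in either library. The exception was Stmn4 over Gap43, at -0.20 in replicate 1 and 0.25 in replicate 2 on the log2 scale, a mean of 0.02 ± 0.32. Of all 45 pairs, 44 were apart by the same rule. Counts that are not divided by length gave another order, led by Basp1, Stmn1 and Stmn3, with Crmp1 and Dpysl2 next, so the order rests on the transcript lengths, which run from 1054.5 nt for Stmn1 to 4542 nt for Dpysl3 in replicate 1.

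For the highest gene of each family the nearest nuclear protein-coding genes in level were found by the Euclidean distance of log2 TPM over the 2 libraries, a likeness of level only. For Stmn1 these were Eno1, at 525 and 486 TPM, and Rps14, at 512 and 493 TPM. For Basp1 they were Nedd8, at 283 and 248 TPM, and Tubb4b, at 283 and 246 TPM. For Crmp1 they were Psmb3, at 125 and 119.6 TPM, and Man2c1, at 125 and 119.8 TPM.

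The replicates differed little for most of these genes. A ratio is the log2 of the scaled count (CPM with TMM factors) in replicate 2 divided by that in replicate 1, and a gene was called when the ratio reached 1.2-fold and its counting interval, a 95% conditional binomial interval, did not include 0. Among 14599 annotated genes at 1 TPM or more, 14.4% were called, 7.28% lower and 7.1% higher in replicate 2. Of the 10 genes 1 was called, Gap43, a share near that background. Their median ratio was -0.02, from -0.36 to 0.11, and the median of all 14599 genes was -0.00.

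Gap43 had 23209 counts in replicate 1 and 14838 in replicate 2. Its log2 ratio was -0.36 with an interval of -0.39 to -0.34, which is 1.29-fold lower in replicate 2. Of 7929 protein-coding genes at 10 TPM or more, 0.807% had a lower ratio. Of these 7929, 7.53% were called, 2.21% lower and 5.32% higher. Stmn2 lay next, with 26986 and 19537 counts and a ratio of -0.19, interval -0.21 to -0.16, short of 1.2-fold. Dpysl3, Basp1, Marcks and Stmn1 had ratios of -0.07, -0.06, -0.03 and -0.01, and the intervals of Marcks and Stmn1 included 0. Stmn3, Stmn4, Crmp1 and Dpysl2 lay above 0, at 0.07, 0.07, 0.08 and 0.11. On the deposited TPM scale, where the median of all genes was -0.12, these 4 ratios were -0.06, -0.03, -0.05 and -0.03, so their sign depends on the scaling and they stood above the median of all genes under both. Differences between the replicates rest on 1 library on each side, and the intervals cover counting error only.

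**Figure D2:**
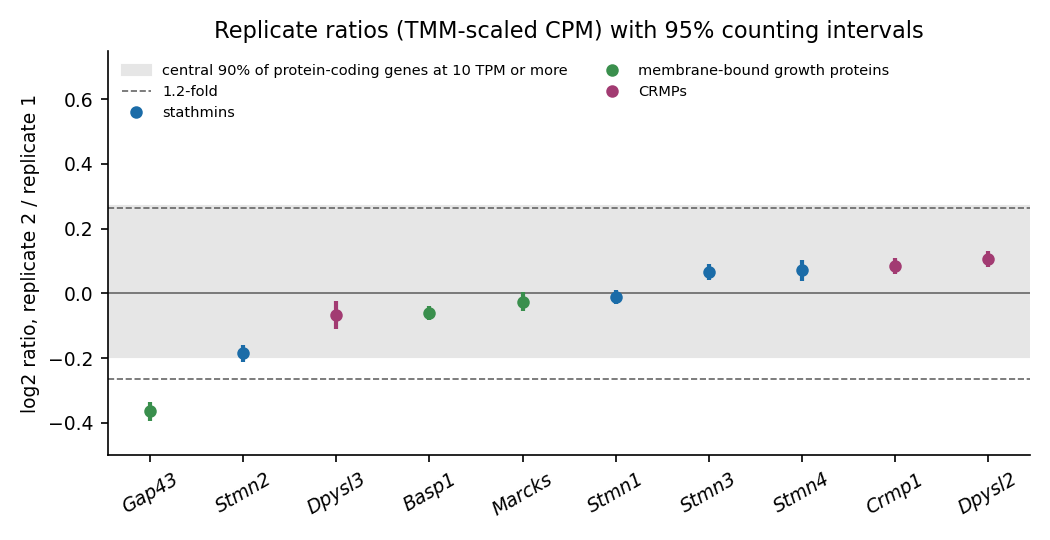
Log2 ratio of replicate 2 over replicate 1 for each gene, with 95% counting intervals as vertical lines and colours for the 3 families. The grey band holds the central 90% of protein-coding genes at 10 TPM or more and dashed lines mark 1.2-fold; Gap43 at -0.36 is the only gene of the 10 outside both.

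Other groups moved between the same libraries, and their part in the Gap43 ratio was not tested. Counts of called genes in all lists that follow stand beside the 14.4% called among all genes at 1 TPM or more. All 6 microglial genes were called lower in replicate 2, with summed levels of 209 and 145 TPM, led by C1qb at 58.1 ± 12.3 TPM. Of 6 myelin genes 4 were called higher, Mbp, Mobp, Mag and Mog, with summed levels of 1919 and 2334 TPM, led by Mbp at 1129 ± 207 TPM. All 7 genes that neuronal activity induces were called higher, with summed levels of 197 and 399 TPM. Of 8 genes listed for immature neurons none was called by the 1.2-fold rule, with summed levels of 194 and 193 TPM. The highest were Dlx1 at 95.5 ± 3.30 and Dcx at 25.7 ± 0.156 TPM. Dlx1 gave 93.2 and 97.8 TPM of those sums, and whether these genes mark immature neurons alone here was not tested. The ratios of these 8 genes ran from -0.16 for Sox4 to 0.25 for Dlx2, with 3 below 0 and 5 above. Of 5 genes of dividing cells 3 reached 1 TPM, led by Birc5 at 1.56 ± 0.156 TPM, and 1 of them was called higher, Birc5 at 0.38 from 144 and 155 counts.

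For the other cell type lists, none of 5 excitatory neuron genes was called, and their summed levels were 1206 and 1164 TPM. Of 6 GABAergic genes, led by Gad1 at 549 ± 115 TPM, 2 were called higher, Pvalb at 0.83 and Sst at 0.30. Of 6 astrocyte genes, led by Aldoc at 688 ± 20.7 TPM, 1 was called lower, Aqp4 at -0.37. Of 5 endothelial genes, led by Ly6c1 at 107 ± 23.7 TPM, Slco1a4 was called lower at -0.34 and Ly6c1 higher at 0.42. Of 4 oligodendrocyte precursor genes 1 was called higher, Olig1, which was also the highest at 89.2 ± 6.87 TPM. None of 5 olfactory bulb genes, led by Doc2g at 155 ± 8.21 TPM, was called. Their mean levels began at 4.995 TPM, so the dissection may have held olfactory bulb. Its part in the levels given here was not tested.

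The leading transcript of each gene was the same in both replicates, while the shares of some other transcripts differed. The deposited transcript quantification splits a gene's TPM over its annotated transcripts, and 4 of the 10 genes, Stmn3, Basp1, Marcks and Dpysl2, had a single transcript in it. For all 6 others the same transcript held 50% or more of the gene's TPM in both libraries, as it did for 68.0% of 6268 genes at 10 TPM or more with at least 2 transcripts. At 75% or more the counts were 4 of 6 and 36.6%. These shares are estimates from reads that transcripts of a gene have in common.

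In Stmn1 the leading transcript Stmn1-201 held 97.6% and 97.8% of the gene's TPM, in Stmn2 Stmn2-201 held 97.8% in both libraries, and in Gap43 Gap43-201 held 99.4% and 98.3%. No other transcript of these 3 genes passed 1.70%. Stmn4 was more mixed. Stmn4-201 held 81.2% and 77.6%, and Stmn4-208, which keeps an intron, 6.98% and 12.4%. That retained-intron transcript had 557 and 862 expected counts with posterior SDs of 64.2 and 74.8 counts. The coding transcript Stmn4-204 held 7.76% and 7.30%. A second retained-intron transcript, Stmn4-205, went the other way, at 3.48% and 1.43%, so the 2 forms that keep an intron did not move together.

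**Figure D3:**
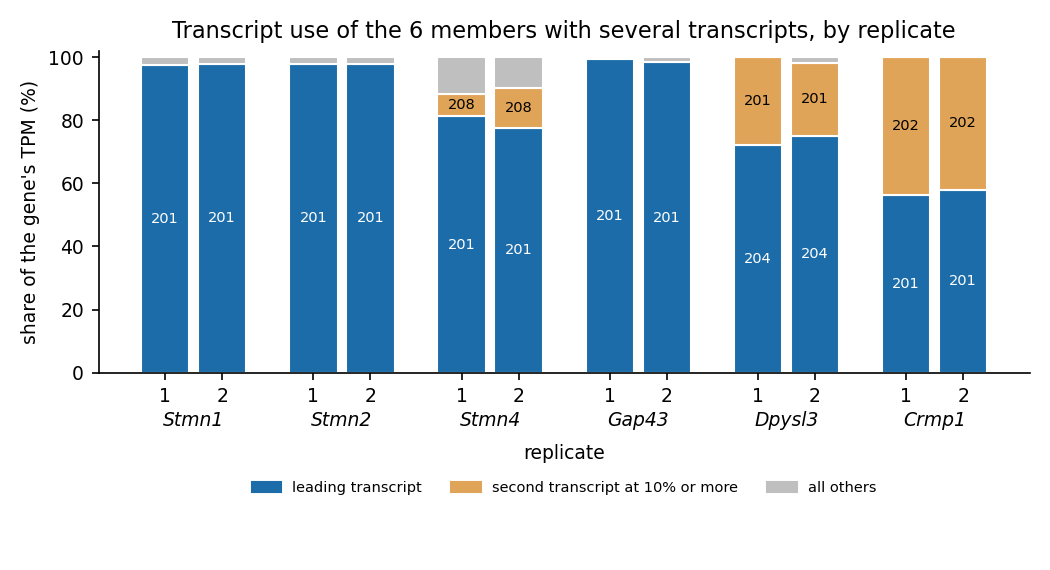
Share of each gene's TPM taken by its transcripts, in percent, for the 6 genes with several transcripts, with 1 bar per replicate. Blue is the leading transcript, orange a second transcript with 10% or more in either library and grey all others; Crmp1 and Dpysl3 divide between a pair of transcripts, while Stmn1, Stmn2 and Gap43 have 1 that holds over 97%.

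Crmp1 and Dpysl3 each divided between a pair of coding transcripts with start sites of their own. Crmp1-201 starts at position 37245764 of chromosome 5 and Crmp1-202 at 37242080, 3684 nt upstream. Crmp1-201 had 70.0 and 69.6 TPM in replicates 1 and 2, and Crmp1-202 at 54.2 and 50.4 TPM. Crmp1-201 thus held 57.2 ± 1.16% of the gene's TPM and Crmp1-202 42.8 ± 1.16%, with deposited intervals apart in both libraries. The posterior SD of each was 259 and 289 counts beside 15643 and 14059 expected counts for Crmp1-201. The release used for names lists 10 Crmp1 transcripts, of which the deposited files hold these 2.

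The upstream Crmp1 transcript has a first coding exon of 381 bases, and the downstream transcript one of 39 bases. After that exon the 1680 coding bases are the same. The 3 sequences below show that junction in Crmp1 and the matching junction in Dpysl2, whose only deposited transcript also starts with a 39-base coding exon. Capitals are the last 39 bases of the first coding exon, and the 51 bases in lower case follow it in the transcript.
Crmp1-201: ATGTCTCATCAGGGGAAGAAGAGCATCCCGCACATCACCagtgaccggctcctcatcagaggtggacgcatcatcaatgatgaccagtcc
Crmp1-202: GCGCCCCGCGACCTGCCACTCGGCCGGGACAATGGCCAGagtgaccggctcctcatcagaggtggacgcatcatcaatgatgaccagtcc
Dpysl2-201: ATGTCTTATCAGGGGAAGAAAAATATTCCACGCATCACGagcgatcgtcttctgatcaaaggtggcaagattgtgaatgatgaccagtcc
In the lower-case stretch Crmp1 and Dpysl2 shared 74.5% of bases.

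RefSeq promoter windows (GRCm38.p6), from 250 bases before to 50 bases after a start site, were listed for both Crmp1 start sites and, among the other 9 genes, for Stmn3 and Basp1. The Crmp1 windows are shown because both start sites carried transcripts. Capitals mark matches to GGGCGG on either strand, the core of the GC box. The first window lies at chr5:37241808-37242107 and the second at chr5:37245514-37245813, both on the plus strand.
Crmp1 upstream start: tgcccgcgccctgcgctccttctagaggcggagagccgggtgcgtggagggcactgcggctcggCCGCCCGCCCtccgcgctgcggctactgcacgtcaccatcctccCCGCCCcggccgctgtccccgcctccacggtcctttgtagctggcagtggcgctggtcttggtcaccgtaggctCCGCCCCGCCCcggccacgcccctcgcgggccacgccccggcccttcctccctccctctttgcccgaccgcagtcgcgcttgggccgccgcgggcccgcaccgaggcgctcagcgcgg
Crmp1 downstream start: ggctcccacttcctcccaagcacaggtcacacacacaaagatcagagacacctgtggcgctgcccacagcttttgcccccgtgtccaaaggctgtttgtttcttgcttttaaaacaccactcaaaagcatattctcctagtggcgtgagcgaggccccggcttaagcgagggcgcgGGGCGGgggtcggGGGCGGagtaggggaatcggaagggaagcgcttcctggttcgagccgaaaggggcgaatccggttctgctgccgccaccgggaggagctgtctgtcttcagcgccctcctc
The upstream window held 5 matches, some overlapping, and the downstream window 2. Among all 32851 windows, 35.7% held at least 1. Neither window held TATAAA, found in 13.6% of windows, or CCAAT, found in 37.4%, on either strand. The upstream window had 41 CG dinucleotides and 77.0% G and C, the downstream window 20 and 61.0%, and the medians of all windows were 7 and 52.7%. The start site of the upstream window lies 22 nt from that of Crmp1-202, and that of the downstream window is the start of Crmp1-201.

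Dpysl3 divided in the opposite proportion. Dpysl3-204, from the upstream start with a first coding exon of 378 bases, stood at 20.0 and 17.8 TPM and held 72.1% and 75.1% of the gene's TPM. Dpysl3-201, which starts 44.9 kb downstream with a first coding exon of 39 bases, stood at 7.72 and 5.43 TPM and held 27.9% and 22.95%. The form with the long first coding exon was thus the larger share of Dpysl3, at 73.6 ± 2.11%, and the smaller share of Crmp1, at 42.8 ± 1.16%, without overlap of the libraries. These Dpysl3 transcripts differ at their 3' ends too, with lengths of 5484 and 2106 nt, so reads from the longer 3' end also set the split. In counts Dpysl3-201 had 1212 and 770 and a replicate ratio of -0.37, interval -0.51 to -0.24, whereas Dpysl3-204 had 8708 and 7018 and a ratio of -0.03, interval -0.08 to 0.01.

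Relatives of these genes outside the set spanned a wide range. Dpysl4 and Dpysl5, the remaining CRMPs, stood at 31.5 ± 2.33 and 19.4 ± 0.636 TPM, and Marcksl1, the paralog of Marcks, at 118 ± 3.95 TPM, above Marcks in both libraries. Nrgn, which binds calmodulin through the same kind of motif as Gap43 but in dendrites, stood at 631 and 941 TPM, and was called higher in replicate 2 with a ratio of 0.54, interval 0.52 to 0.55. Gap43 and Nrgn thus lay on opposite sides. Pcp4, another small calmodulin-binding protein, was at 453 ± 69.9 TPM with a ratio of -0.21, short of the call. Stmnd1, which carries a stathmin-like domain, was at 0.0100 and 0.0500 TPM.

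Of 16 genes for kinases that act on these proteins and for activators of Cdk5, 2 were called higher and 0 lower in replicate 2, beside 7.1% and 7.28% of all genes. The Cdk5 activators Cdk5r2 and Cdk5r1 were the highest, at 129.7 ± 19.5 and 126 ± 10.2 TPM. Cdk5r2 was called at 0.44, and the calcium-activated kinase gene Camk4, at 13.1 ± 0.856 TPM, at 0.27. The tubulin genes, whose products stathmins and CRMPs bind, were led by Tuba1a at 1033 ± 48.9 and Tubb2a at 889 ± 40.0 TPM. Of 8 tubulins 1 was called, Tubb4a, higher at 0.31. The calmodulin genes Calm2 and Calm3 stood at 1448 ± 20.7 and 915 ± 64.0 TPM, and of 3 calmodulins Calm3 was called higher at 0.28.

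Of 13 genes of semaphorin signalling, which acts through CRMPs, 1 was called lower and 0 higher, beside 7.28% and 7.1% of all genes. Rac1, a GTPase of the actin skeleton, and the kinase gene Fyn were the highest, at 167 ± 7.89 and 68.9 ± 4.21 TPM. The gene called was Nrp2, a semaphorin co-receptor, at 8.65 and 4.88 TPM and a ratio of -0.70. Of 4 genes for partners of CRMP proteins none was called, with the kinesin light chain Klc1 at 473 ± 30.1 and the motor Kif5b at 45.2 ± 2.99 TPM. Of 8 genes for RNA-binding proteins and palmitoyl transferases, led by Elavl3 at 68.9 ± 5.47 and Zdhhc17 at 37.4 ± 3.09 TPM, 1 was called. Ratios lay below 0 for 6 of the 8 genes and above 0 for 2. The gene called was Elavl4, whose product HuD is known to stabilise Gap43 mRNA. It stood at 20.2 and 14.5 TPM, with a ratio of -0.28 and an interval of -0.34 to -0.22, on the same side as Gap43. No relation between these genes can be tested over 2 libraries.

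Transcription factors linked to axon regeneration, some of them brakes on axon growth, stood at 40.5 TPM or less. All 11 lay at 1 TPM or more and the highest were Klf9 at 40.5 ± 1.15 and Stat3 at 24.8 ± 0.919 TPM. Of the 11, 2 were called higher and 0 lower. Atf3, induced by axon injury, stood at 1.05 and 1.32 TPM with a ratio of 0.84, and Klf4, a brake on axon growth, at 2.54 and 2.53 TPM with a ratio of 0.28. The ratios come from counts and the levels from TPM, which divides by the length of the transcripts assigned in each library.

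**Figure D4:**
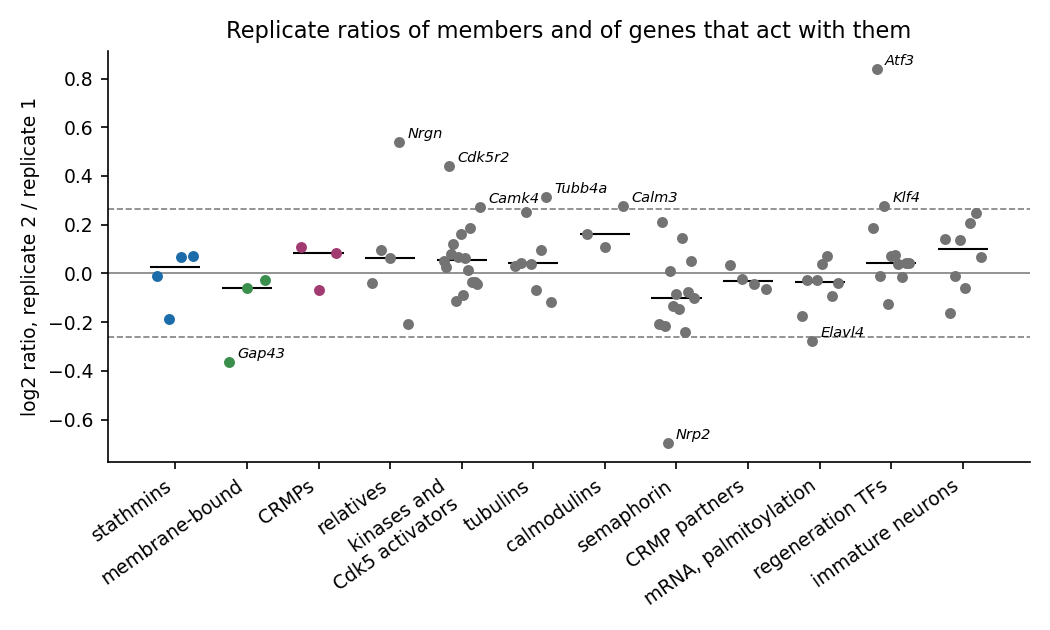
Log2 ratio of replicate 2 over replicate 1 for each gene at 1 TPM or more in 12 lists, with the 3 families in colour, other lists in grey and the median of each list as a black line. Dashed lines mark 1.2-fold and the genes called are named; Gap43 and Elavl4 lie below the lower line with Nrp2, and Nrgn, Cdk5r2 and Atf3 lie highest.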

How the data were processed

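Polyadenylated RNA of frontal cortex was sequenced in 2 libraries. Gene and transcript values were deposited for mm10 and GENCODE M4 (stated in the accompanying description), and for the aligner and quantifier the step is not given in the sources used here. The deposited values used were expected counts (estimated fragments), TPM and FPKM over all entries, the percent of a gene's TPM per transcript, and interval bounds of TPM and posterior SDs of counts, entered as score values without a stated level. Deposited lengths were used to check names. Symbols and coordinates came from GENCODE M21 on mm10, matched for 42462 of 43346 genes. Of the 13 named transcripts 9 had the same length in both releases, and the largest difference was 8 nt.

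Expected counts were rounded and scaled by TMM factors of 1.02 and 0.982 (edgeR 4.0.16, R 4.3.3) with a prior count of 2. Entries that are neither genes nor spike-ins took 0.568% and 0.534% of counts and spike-ins 3.50% and 3.47%, and both stayed out of the scaling. Nothing says how many animals each library holds, and SDs over 2 libraries have 1 degree of freedom. The ratio and interval steps were tested on simulated data with 14672 genes, 200 of them changed. There, 95.4% of intervals of unchanged genes held the true value. The simulated counts varied by counting error alone, as the interval assumes. The figure therefore checks the calculation and does not speak to the spread between animals. The genes and lists were chosen with earlier results of these data known. Genes named are the 10, all relatives, the 2 highest and any called of each pathway list and of the immature neuron list, the highest of each other cell type list, and transcripts at 10% or more. Others named were chosen after their values were seen. Coding sequences were aligned with Biopython 1.88. Alternatives covered scaling, prior counts, folds, filters, posterior means, denominators and each library alone, with DESeq2 1.42.0 size factors.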

Additional observations from a re-analysis of the deposited data

How the results depend on the processing

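The number of adjacent genes apart in level stayed at 8 of 9 with posterior mean TPM, FPKM and TPM rescaled to nuclear protein-coding genes. It was 5 with counts not divided by length, where the rule had no interval step. In each library alone, with genes ordered by that library, only the interval step could fail and 9 were apart. Gap43 and Stmn4 change places between the libraries. The combined share of 0.198% became 0.402% over nuclear protein-coding genes alone and 0.237% in counts, and ran from 0.187 to 0.209% in single libraries. By the 1.2-fold rule, 1 gene was called under every scaling of counts and every prior count tried. With deposited TPM and a pseudocount of 1 there were 2, Gap43 and Stmn2, where 20.4% of all genes were past 1.2-fold and the median of the 10 genes moved from -0.02 to -0.15 beside -0.12 for all genes. At 1.1-fold 2 were called beside 32.8% of all genes, and at 1.5-fold 0 beside 3.45%. The Gap43 ratio ran from -0.48 to -0.36. Relative to the median of all genes it stayed at -0.36. A change of count scaling shifts all genes alike, so it could not have moved that relative value. The count of genes led by 1 transcript was 10 in each alternative at 50% and in each library alone, and 8 at 75%. No paired analysis was possible because there is 1 group. Depth limits little here: the lowest count of the 10 genes was 7794.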

Other observations

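The short noncoding transcript Gap43-202, chosen after its values were seen, went the other way from the gene. Its level was 1.34 and 2.82 TPM, from 61.4 and 115 expected counts with posterior SDs of 7.0 and 10.7 counts. Its replicate ratio was 1.16 with a counting interval of 0.74 to 1.67, and that of the coding transcript Gap43-201 was -0.37. Stmn4-208, which keeps an intron, also stood higher in replicate 2, with a ratio of 0.91 and an interval of 0.76 to 1.07, while the coding transcript Stmn4-201 had 0.03 and an interval of -0.00 to 0.06. These counting intervals do not cover the uncertainty of assigning reads to transcripts.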
